A study of Mus musculus with 79 samples.

Results

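Elastic fibres give the lung its recoil, and 10 genes of their core, their scaffold and their crosslinking were followed here in mouse lung after cigarette smoke: Eln, Lox, Loxl1, Fbn1, Mfap4, Mfap5, Ltbp4, Fbln5, Emilin1 and Adamts17. They were chosen by name, as the array rows whose identifier carries one of these symbols, and each gene had 1 row, so the set is 10 of 31350 rows. All 10 were named with earlier results of these data known, so counts of called genes describe this set and are not independent support for a response of elastic fibre genes. Eln and Adamts17 were named for their smoke responses in these mice. Their values for smoke and for duration are therefore given without a test, and counts for those comparisons cover the other 8 genes.

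Lungs came from 79 mice of 5 to 7 weeks on a C57BL/6J background, each measured on 1 Affymetrix mouse gene array. WT mice were compared with littermates that overexpress Scnn1b as a transgene in airway epithelial cells (βENaC mice). Scnn1b encodes the β subunit of the epithelial sodium channel. The study describes chronic bronchitis in these mice, and emphysematous changes that develop early after birth. The promoter that drives the transgene is not given in the sources used here. Mice of both sexes and genotypes breathed mainstream and side-stream smoke from 6 research cigarettes per day without filters, or room air in the same chamber (sham), for 1 day or for 5 consecutive days, and the right lung was taken 4 hours after the last exposure. Each of the 16 groups held 5 mice, except for 6 sham-exposed female WT mice, 4 sham-exposed female βENaC mice and 4 smoke-exposed male WT mice, all at 5 days. Each duration had its own sham-exposed mice. The source names of 13 smoke-exposed WT mice read βENaC, while their titles and genotype entries read WT. Scnn1b itself separated the genotypes without overlap, with a mean log2 intensity of 8.98 among the 40 WT mice (SD 0.21) against 11.69 among the 39 βENaC mice (SD 0.10). The lung was represented by its own markers, with Sftpc and Sftpb of alveolar type 2 cells above more than 99.9% of rows. The tissue also held heart muscle markers at clear levels, and single mice carried skeletal muscle or thymus markers. The brown fat markers Ucp1 (3.29 to 9.45) and Cidea (4.27 to 8.41) varied widely between mice. The arrays correlated with each other at 0.965 to 0.995.

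An elastic fibre is built from elastin, the product of Eln, which is secreted as soluble tropoelastin and laid down on a scaffold of microfibrils. Fibrillin-1 (Fbn1) forms that scaffold, and Mfap4, Mfap5 and Ltbp4 associate with it. Fibulin-5 (Fbln5) and Emilin1 help to place elastin on microfibrils. Lysyl oxidase (Lox) and its relative Loxl1 oxidise lysines so that the fibre becomes crosslinked and insoluble. Adamts17 is a secreted metalloprotease of the ADAMTS family that has been linked to fibrillin. In the lung most elastin is made while alveoli form and the fibres turn over slowly afterwards.

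RefSeq promoters on GRCm38.p6 were held for 5 of the 10 genes, Fbn1, Ltbp4, Fbln5, Emilin1 and Adamts17. The 250 bases before the start site used for Adamts17, Fbn1 and Fbln5 are printed, and Ltbp4 and Emilin1 are given by counts of matches only. Capitals mark matches on either strand to 5 short motifs. The core bound by the aryl hydrocarbon receptor was searched as GCGTG. The AP-1 site was searched as TGANTCA and the GC box as GGGCGG. The TATA box was searched as TATAAA and the E box as CACGTG. No 2 matches overlapped in the 5 promoters. The windows of Adamts17 and Fbn1 partly overlap the annotated gene, and those of Emilin1 and Ltbp4 lie inside it. For these genes the start site used is not the outermost annotated end.
Adamts17, chr7:66839485-66839734, + strand: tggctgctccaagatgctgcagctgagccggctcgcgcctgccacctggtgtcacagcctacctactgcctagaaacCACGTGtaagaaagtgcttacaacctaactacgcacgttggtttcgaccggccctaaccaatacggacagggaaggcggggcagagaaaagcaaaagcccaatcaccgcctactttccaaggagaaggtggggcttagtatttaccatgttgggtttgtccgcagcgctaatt
Fbn1, chr2:125506439-125506688, - strand: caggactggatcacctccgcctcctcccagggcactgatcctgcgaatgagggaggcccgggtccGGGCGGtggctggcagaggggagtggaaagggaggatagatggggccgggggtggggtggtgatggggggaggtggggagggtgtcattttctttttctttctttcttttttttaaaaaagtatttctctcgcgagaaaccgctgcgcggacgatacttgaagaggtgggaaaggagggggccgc
Fbln5, chr12:101819120-101819369, - strand: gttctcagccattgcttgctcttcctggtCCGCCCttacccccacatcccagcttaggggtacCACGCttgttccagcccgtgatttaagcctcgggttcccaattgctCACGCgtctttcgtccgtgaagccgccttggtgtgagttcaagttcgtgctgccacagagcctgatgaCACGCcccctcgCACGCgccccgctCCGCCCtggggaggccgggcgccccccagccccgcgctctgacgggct

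Fbln5 held 4 matches to GCGTG, Emilin1 held 1, and the windows of Adamts17, Fbn1 and Ltbp4 held none. Of 32851 mouse promoters, 28.2% held GCGTG in the same window. Adamts17 held 1 match to CACGTG, which 6.02% of promoters held. Fbn1 held 1 match to GGGCGG, Fbln5 held 2 and Ltbp4 held 3, against 32.7% of promoters with at least 1. No match to TGANTCA or TATAAA lay in the 5 windows, and 6.75% and 12.4% of promoters held those.

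Effects were taken from an additive linear model with exposure, genotype and sex, fitted for each duration across all rows with limma. Its β coefficient is a difference on the log2 scale, in which 1 means a 2-fold change. A gene was called changed at a Benjamini-Hochberg adjusted p below 0.05 and a change of more than 1.3-fold (0.379 on the log2 scale). Lung tissue was measured in bulk, so fewer cells of a type and less RNA per cell cannot be told apart.

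The 2 crosslinking enzymes went in opposite directions after 5 days of smoke, with Lox higher and Loxl1 lower. Lox rose at both durations. Its log2 intensity at 1 day ran from 7.97 to 9.37 in the 20 sham-exposed mice, with a median of 8.76, and from 8.71 to 10.14 in the 20 smoke-exposed mice, with a median of 9.63. Every smoke-exposed mouse lay above the mean of its matched sham group (same sex and genotype), and 14 of them lay above all sham-exposed mice. In males the exposures did not overlap, with 8.65 to 9.37 after sham and 9.65 to 10.14 after smoke. The increase was 1.83-fold (β = 0.87, SE 0.0708, adjusted p = 7.59e-12).

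After 5 days Lox lay between 8.24 and 9.22 in the 20 sham-exposed mice (median 8.80) and between 8.99 and 10.07 in the 19 smoke-exposed mice (median 9.29). Again every smoke-exposed mouse was above the mean of its matched sham group. The increase was 1.51-fold (β = 0.59, SE 0.0833, adjusted p = 4.03e-06). The gap between matched group means ranged from 0.35 to 0.80 after 5 days, and from 0.79 to 1.02 after 1 day. The smaller increase at 5 days did not pass the test of the difference between durations (difference -0.28, SE 0.111, adjusted p = 0.229).

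Loxl1 fell after 5 days. Sham-exposed mice ran from 8.78 to 9.73 (median 9.34, n = 20) and smoke-exposed mice from 8.26 to 9.25 (median 8.76, n = 19). All 19 smoke-exposed mice were below the mean of their matched sham group, 10 of them lay below every sham-exposed mouse, and the 2 ranges overlapped between 8.78 and 9.25. The decrease was 1.49-fold (β = -0.57, SE 0.0617, adjusted p = 2.3e-08). At 1 day the difference was small, with means of 9.16 after sham (SD 0.26) and 9.02 after smoke (SD 0.35; β = -0.14, SE 0.0678, adjusted p = 0.227). The change from 1 to 5 days passed the test (difference -0.43, SE 0.0929, adjusted p = 0.00447). In a model with only exposure, duration and their product the difference was the same size, -0.43, with a larger SE of 0.124 and an adjusted p of 0.0735.

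**Figure D1:**
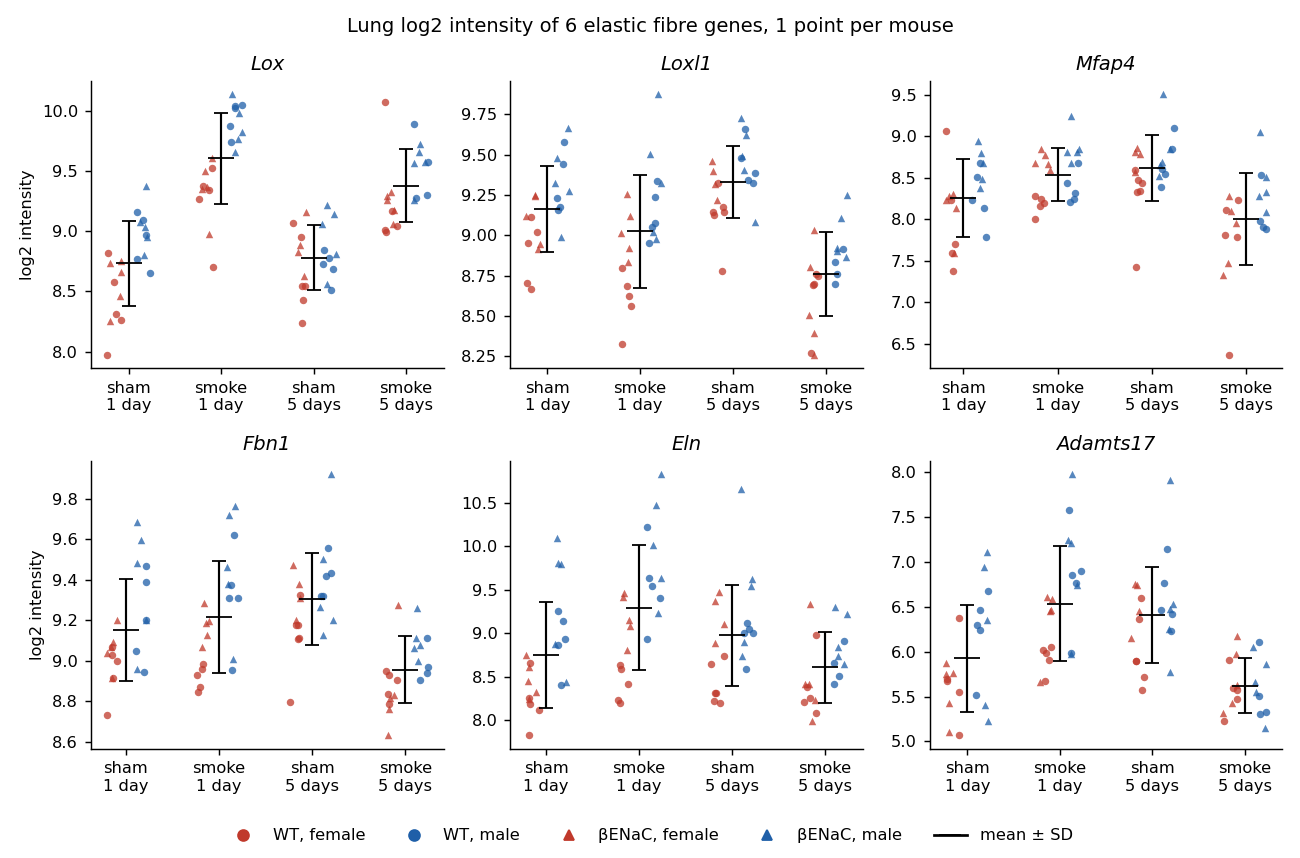
Log2 intensity (vertical axes, each with its own range) of 6 genes in lungs of sham- and smoke-exposed mice at 1 and 5 days; each point is 1 mouse, colours give sex, shapes give genotype, and black bars give the mean ± SD of 19 or 20 mice. Smoke-exposed mice were higher in Lox at both durations, whereas Loxl1, Mfap4 and Fbn1 were lower after smoke at 5 days, and Eln and Adamts17 sat higher at 1 day and lower at 5 days.

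Among the microfibril genes, Mfap4 changed most. Its 1-day values ran from 7.38 to 9.06 (median 8.26) after sham and from 8.01 to 9.25 (median 8.64) after smoke, a difference that did not pass the test (β = 0.28, SE 0.0972, adjusted p = 0.0602). At 5 days the order turned, with 7.43 to 9.51 (median 8.60) after sham and 6.37 to 9.05 (median 8.09) after smoke. The ranges overlapped widely, yet 18 of 19 smoke-exposed mice were below their matched sham mean. The decrease was 1.54-fold (β = -0.63, SE 0.127, adjusted p = 0.001). Without the female WT mouse at 6.37 it remained called (β = -0.55, SE 0.108, adjusted p = 0.000781). The effect of smoke differed between durations by -0.91 (SE 0.162, adjusted p = 0.000732).

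Fbn1, the scaffold itself, had nearly the same mean after sham and smoke at 1 day, 9.15 (SD 0.25) against 9.22 (SD 0.28), with 20 mice each (β = 0.07, SE 0.0598, adjusted p = 0.578). At 5 days it lay at 8.80 to 9.92 (median 9.31) after sham and at 8.63 to 9.28 (median 8.94) after smoke. All 19 smoke-exposed mice fell below their matched sham mean, although the ranges shared the stretch from 8.80 to 9.28. The difference had an adjusted p of 2.77e-05 but, at 1.28-fold, stayed under the fold threshold (β = -0.35, SE 0.0552). The shift between durations passed its test (difference -0.42, SE 0.0823, adjusted p = 0.00194).

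Mfap5 and Ltbp4 did not pass the exposure test at either duration. Mfap5 averaged 9.09 ± 0.31 (SD, n = 20) after 5 days of sham and 8.84 ± 0.36 (SD, n = 19) after smoke (β = -0.27, SE 0.0887, adjusted p = 0.0584). Its shift between durations also missed the threshold (difference -0.40, SE 0.117, adjusted p = 0.0577). This shift lay close to the threshold. With limma it passed after median centring (adjusted p = 0.047) and without the lowest 30% of genes (adjusted p = 0.0421). It also passed with array weights (adjusted p = 0.047) and in 15 of 79 fits that each left out 1 mouse. Ltbp4, which binds latent TGF-β and takes part in fibre assembly, had 95% confidence intervals of -0.03 to 0.20 at 1 day and -0.13 to 0.09 at 5 days, all within the fold threshold.

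The assembly genes changed little in size. After 1 day Fbln5 averaged 9.26 in sham-exposed mice (SD 0.27) and 9.40 in smoke-exposed mice (SD 0.10), and all 20 of the latter were above their matched sham mean (β = 0.14, SE 0.0603, adjusted p = 0.173). After 5 days the means were 9.53 (SD 0.19) and 9.34 (SD 0.21), and 16 of 19 smoke-exposed mice were below. The 5-day decrease was 1.14-fold (β = -0.18, SE 0.0569, adjusted p = 0.0433), under the fold threshold, and the turn between durations passed its test (difference -0.32, SE 0.0838, adjusted p = 0.0296), though not in the model with only exposure, duration and their product (difference -0.32, SE 0.0907, adjusted p = 0.0657). Emilin1 was lower after smoke at both durations by a similar amount, with β = -0.21 (SE 0.0715, adjusted p = 0.0515) at 1 day and β = -0.27 (SE 0.0819, adjusted p = 0.0396) at 5 days. Both lay under the fold threshold, and the difference between durations was -0.05 with a 95% confidence interval of -0.27 to 0.17.

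Eln and Adamts17 are described without a test. Eln ran from 7.83 to 10.10 (median 8.64) after sham and from 8.20 to 10.83 (median 9.32) after smoke at 1 day, and 18 of 20 smoke-exposed mice were above their matched sham mean. At 5 days it ran from 8.20 to 10.66 (median 8.95) after sham and from 7.99 to 9.34 (median 8.51) after smoke, with 17 of 19 smoke-exposed mice below. The ranges overlapped widely at both durations, and the β coefficients were 0.54 (SE 0.127) and -0.39 (SE 0.124). The 5-day difference between matched groups was smallest in female WT mice (-0.02) and largest in female βENaC mice (-0.73). The exposure by genotype term for Eln was -0.46 and did not pass its test (95% confidence interval -0.96 to 0.03, adjusted p = 1 in limma). The β of smoke differed between durations by -0.93 (SE 0.181).

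Adamts17 had the largest turn of the 10 genes between durations, -1.40 (SE 0.21). It ran from 5.07 to 7.11 (median 5.76) after sham and from 5.67 to 7.97 (median 6.52) after smoke at 1 day. At 5 days it ran from 5.57 to 7.91 (median 6.43) after sham and from 5.15 to 6.17 (median 5.58) after smoke. All 19 smoke-exposed mice were then below their matched sham mean, and 9 of them lay below every sham-exposed mouse. The β coefficients were 0.61 (SE 0.157) and -0.79 (SE 0.133), and all 4 combinations of sex and genotype went the same way at each duration.

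Of the 8 genes counted for smoke, 1 was called at 1 day (Lox, higher), against 1.08% of all rows called in either direction. With the adjusted p alone the count was also 1, against 9.45% of rows. At 5 days 3 were called, Lox higher and Loxl1 and Mfap4 lower, against 1.16% of all rows. With the adjusted p alone the 5-day count was 6 of 8, against 6.53% of rows, and the 3 added were Fbn1, Fbln5 and Emilin1. Of these, Fbn1 passed in all 39 fits that each left out 1 mouse, Emilin1 in 21 and Fbln5 in 18. The median β of the 8 genes was 0.11 at 1 day and -0.27 at 5 days, against 0.01 and 0.00 over all rows. The effect of smoke differed between durations in 4 of the 8, Loxl1, Fbn1, Mfap4 and Fbln5, all lower at 5 days, against 0.762% of rows that passed in that direction. That test used an adjusted p below 0.05 and no fold threshold.

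**Figure D2:**
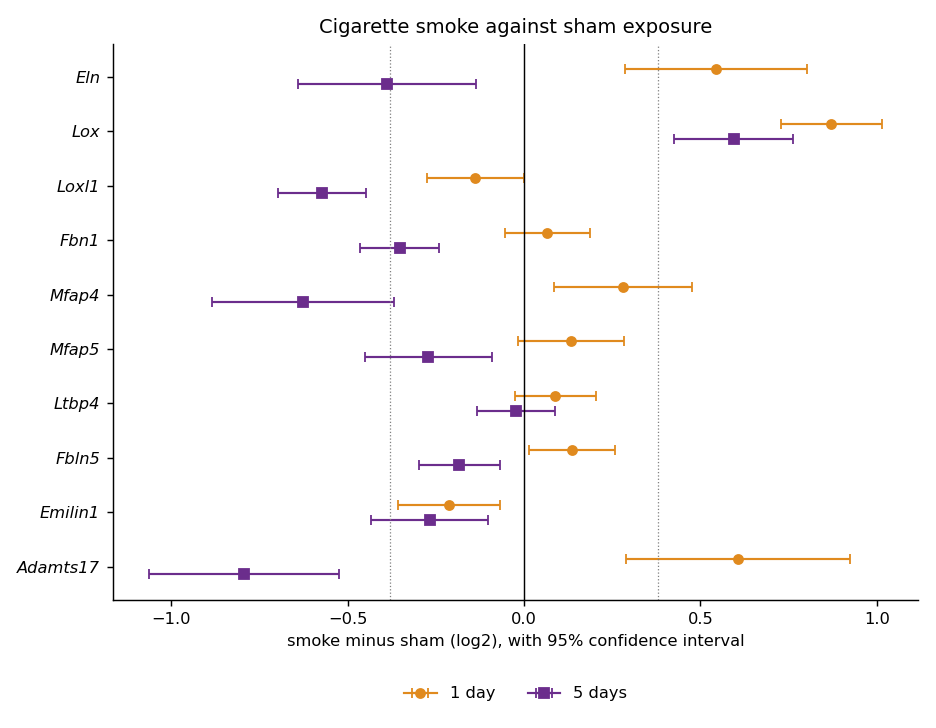
Exposure β coefficients (horizontal axis, smoke minus sham on the log2 scale) with 95% confidence intervals for the 10 genes after 1 day (circles) and 5 days (squares); dotted lines mark the 1.3-fold threshold. Lox lay to the right at both durations (0.87 and 0.59), and Ltbp4 stayed near 0. All 10 genes lay further left at 5 days than at 1 day. The difference between durations passed its test for Loxl1, Fbn1, Mfap4 and Fbln5, and Eln and Adamts17 were not tested.

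Sham levels were also compared, because each duration had its own sham-exposed mice. In the 40 sham-exposed mice none of the 8 genes was called between 5 days and 1 day with limma, against 0.0255% of rows, and 5 had an unadjusted p below 0.05, as 11.7% of all rows did. The ordinary linear model called none either. The differences were nonetheless upward for several genes, at 0.37 for Mfap4 (SE 0.113, adjusted p = 0.156), 0.26 for Fbln5 (SE 0.07, adjusted p = 0.112) and 0.26 for Mfap5 (SE 0.0783, adjusted p = 0.155). Adamts17 was 0.48 (SE 0.158) and Eln 0.25 (SE 0.13) higher in the sham-exposed mice of 5 days, without a test. A turn is the change in smoke minus sham, so a higher sham level at 5 days enters it. The Fbln5 mean rose from 9.26 to 9.53 after sham and went from 9.40 to 9.34 after smoke. Its turn thus lay mostly in the sham-exposed mice. Both exposures moved for Fbn1 (9.15 to 9.31 after sham, 9.22 to 8.96 after smoke) and Loxl1 (9.16 to 9.33, 9.02 to 8.76). Mfap4 medians went from 8.26 to 8.60 after sham and from 8.64 to 8.09 after smoke. The shift within smoke-exposed mice was not tested.

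The wider machinery moved with duration in places. Of 24 measured genes for microfibrils and fibre assembly, 1 was called at 1 day (Emilin2, β = -0.56, SE 0.157, adjusted p = 0.0162) and none at 5 days. Bgn (difference -0.22, adjusted p = 0.0458) and Npnt (difference -0.27, adjusted p = 0.0225) were lower in the test between durations. Of 9 crosslinking enzymes and their activators, a list that holds Lox and Loxl1 relatives and the lysyl oxidase activator Bmp1, Loxl2 differed between durations (difference -0.35, SE 0.0885, adjusted p = 0.0213). None of the 9 was called at either duration. Of 16 other ADAMTS proteases, 3 fell after 5 days of smoke, Adamts1 (β = -0.42, adjusted p = 1.24e-05), Adamts9 (β = -0.42, adjusted p = 0.00905) and Adamts12 (β = -0.42, adjusted p = 0.00548), and the median of the list was -0.08. Adamts9 also differed between durations (difference -0.56, adjusted p = 0.0382). Of 17 elastin-degrading proteases and their inhibitors, none was called for smoke at either duration, while Mmp2 (difference -0.65, adjusted p = 0.00808) and Mmp14 (difference -0.32, adjusted p = 0.017) were lower in the test between durations.

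Markers of other cells moved beside these genes. Of 7 fibroblast markers, 3 fell after 5 days of smoke, Col3a1 (β = -0.58, adjusted p = 0.0122), Col1a1 (β = -0.39, adjusted p = 0.0476) and Tcf21 (β = -0.38, adjusted p = 1.84e-05). The mean level of the 7 ran from 8.93 to 9.72 after sham and from 8.33 to 9.42 after smoke. None of the 7 was called at 1 day. Of 6 smooth muscle and myofibroblast markers none was called at either duration, with 5-day means of 9.14 ± 0.20 (SD, n = 20) and 9.23 ± 0.22 (SD, n = 19). All 3 red cell markers rose after 5 days of smoke, led by Slc4a1 (β = 1.89, adjusted p = 1.28e-08). Their mean level ran from 6.92 to 9.39 after sham and from 8.42 to 10.18 after smoke. Of 4 leukocyte markers only Itgam was called, lower at both durations (β = -0.46 and -0.43). At 5 days 1 of 4 heart muscle markers, Tnnt2 (β = 0.40), and 1 of 3 white fat markers, Lep (β = 0.52), were called higher. Lep was low on these arrays, with a mean log2 intensity of 3.31, above 27.4% of rows. The mean level of 4 heart muscle markers ran from 8.31 to 9.59 after 5 days of sham and from 8.39 to 10.92 after smoke. Between durations Col3a1 (difference -0.73), Tnnt2 (difference 0.50) and the endothelial marker Cdh5 (difference -0.19) differed. The part of these shifts in the elastic fibre results was not tested.

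Males had higher levels at 1 day. In each of the 4 combinations of exposure and genotype the male mean was above the female mean for 9 of the genes, and in 3 of the 4 for Mfap5. Eln, Lox, Loxl1 and Adamts17 were called, 4 of 10, against 0.845% of all rows in either direction and 0.651% higher in males. With the adjusted p alone 7 genes passed, against 9.89% of rows. Eln ran from 7.83 to 9.46 (median 8.52) in 20 females and from 8.40 to 10.83 (median 9.48) in 20 males, and 19 of 20 males were above the mean of the females of their own genotype and exposure. The difference was 1.87-fold (β = 0.91, SE 0.127, adjusted p = 6.29e-06). Adamts17 was 1.61-fold higher in males (β = 0.69, SE 0.157, adjusted p = 0.00271), with 5.07 to 6.61 (median 5.82) in females and 5.23 to 7.97 (median 6.71) in males.

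Lox was higher in all 20 males than in the mean of their matched females at 1 day. It ran from 7.97 to 9.60 (median 8.78) in females and from 8.65 to 10.14 (median 9.51) in males, a 1.47-fold difference (β = 0.56, SE 0.0708, adjusted p = 1.17e-06). Loxl1 lay just past the fold threshold (β = 0.38, SE 0.0678, adjusted p = 0.000164), and was called in 22 of 40 fits that each left out 1 mouse. Fbn1 (β = 0.32, adjusted p = 0.000291), Ltbp4 (β = 0.30, adjusted p = 0.000323) and Mfap4 (β = 0.30, adjusted p = 0.0445) passed the adjusted p but not the fold. Mfap4 did so in 15 of 40 fits that each left out 1 mouse.

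After 5 days no gene was called for sex with limma, against 0.198% of all rows. At an unadjusted p below 0.05 there were 8 of 10, against 11.3% of all rows, and the ordinary linear model called none. Loxl1 alone passed the adjusted p (β = 0.26, SE 0.0617, adjusted p = 0.0273), as 0.616% of rows did. Eln averaged 8.58 ± 0.46 (SD, n = 20) in females and 9.03 ± 0.51 (SD, n = 19) in males (β = 0.40, SE 0.124, adjusted p = 0.141). Without the 4 arrays that correlated least with the others Eln was called (β = 0.48, adjusted p = 0.034). No sex difference was called as different between durations, against 0.654% of rows. The largest of these differences were -0.52 for Adamts17 (SE 0.21, adjusted p = 0.287) and -0.50 for Eln (SE 0.181, adjusted p = 0.204), and 4 of 10 had an unadjusted p below 0.05, against 11.1% of all rows. The fit without the 4 arrays called 1, Ltbp4 (difference -0.29, adjusted p = 0.0153).

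**Figure D3:**
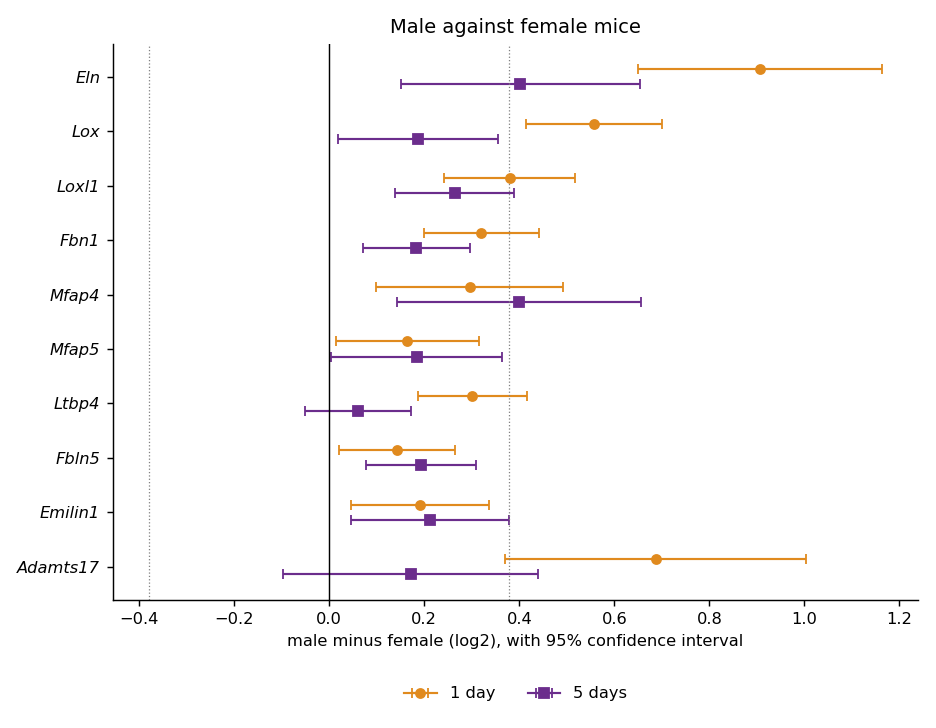
Sex β coefficients (horizontal axis, male minus female on the log2 scale) with 95% confidence intervals for the 10 genes at 1 day (circles) and 5 days (squares); dotted lines mark the 1.3-fold threshold. All 20 coefficients lay above 0, from 0.06 for Ltbp4 at 5 days to 0.91 for Eln at 1 day.

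Of 7 fibroblast markers 2 were higher in males at 1 day, Col3a1 (β = 0.51, adjusted p = 0.000342) and Col1a1 (β = 0.50, adjusted p = 5.12e-05). The median of the list was 0.18, and the mean level of the list ran from 8.78 to 9.42 in females and from 8.98 to 9.62 in males. Of the other lists, the collagen-cleaving proteases Mmp14 (β = 0.45, adjusted p = 6.27e-07) and Mmp2 (β = 0.44, adjusted p = 0.00362) and the microfibril gene Ltbp2 (β = 0.38, adjusted p = 0.0014) were higher in males. The mesothelial marker Msln was higher in males at 1 day (β = 0.38) and the red cell marker Slc4a1 at 5 days (β = 0.89). The part of these markers in the sex differences was not tested.

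Eln was higher in βENaC mice at both durations. At 1 day it ran from 7.83 to 10.23 (median 8.65) in 20 WT mice and from 8.25 to 10.83 (median 9.19) in 20 βENaC mice, a 1.41-fold difference (β = 0.50, SE 0.127, adjusted p = 0.0103). At 5 days it ran from 8.09 to 9.12 (median 8.55) in 20 WT mice and from 7.99 to 10.66 (median 8.90) in 19 βENaC mice (β = 0.44, SE 0.125, adjusted p = 0.0157). At 1 day 3 of 20 βENaC mice, and at 5 days 4 of 19, were below the mean of the WT mice of their own sex and exposure. The 5-day call was lost without 1 sham-exposed male βENaC mouse, replicate 2, when β fell to 0.37.

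Mfap5, an acidic microfibril-associated glycoprotein, separated the genotypes most evenly. At 1 day it ran from 8.18 to 9.11 (median 8.77) in WT mice and from 8.69 to 9.54 (median 9.10) in βENaC mice. All 20 βENaC mice were above the mean of their matched WT mice, and the ranges overlapped between 8.69 and 9.11. The difference was 1.34-fold (β = 0.42, SE 0.0743, adjusted p = 0.000171). At 5 days it was 1.23-fold (β = 0.30, SE 0.0889, adjusted p = 0.0213), under the fold threshold. Mfap4 was also called at 1 day (β = 0.39, SE 0.0972, adjusted p = 0.00979), close to the threshold and called in 27 of 40 fits that each left out 1 mouse, and 19 of 20 βENaC mice were above their matched WT mean.

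In all, 3 of 10 genes were called for genotype at 1 day, against 1.55% of all rows (1.14% higher in βENaC mice), and 1 of 10 at 5 days, against 2.53% (1.88% higher). With the adjusted p alone the counts were 4 at 1 day, against 5.87% of rows, and 2 at 5 days, against 10.2%. Loxl1, which the 1-day count gained, passed in 16 of 40 fits that each left out 1 mouse. Adamts17 was not called at either duration, with 95% confidence intervals of β of -0.19 to 0.45 and -0.08 to 0.46. Both intervals held 0 and reached past the fold threshold. Lox was 0.09 (SE 0.0708, adjusted p = 0.586) and 0.12 (SE 0.0835, adjusted p = 0.419) higher in βENaC mice. No genotype effect was called as different between durations, and no row was among all 31350 (0%).

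**Figure D4:**
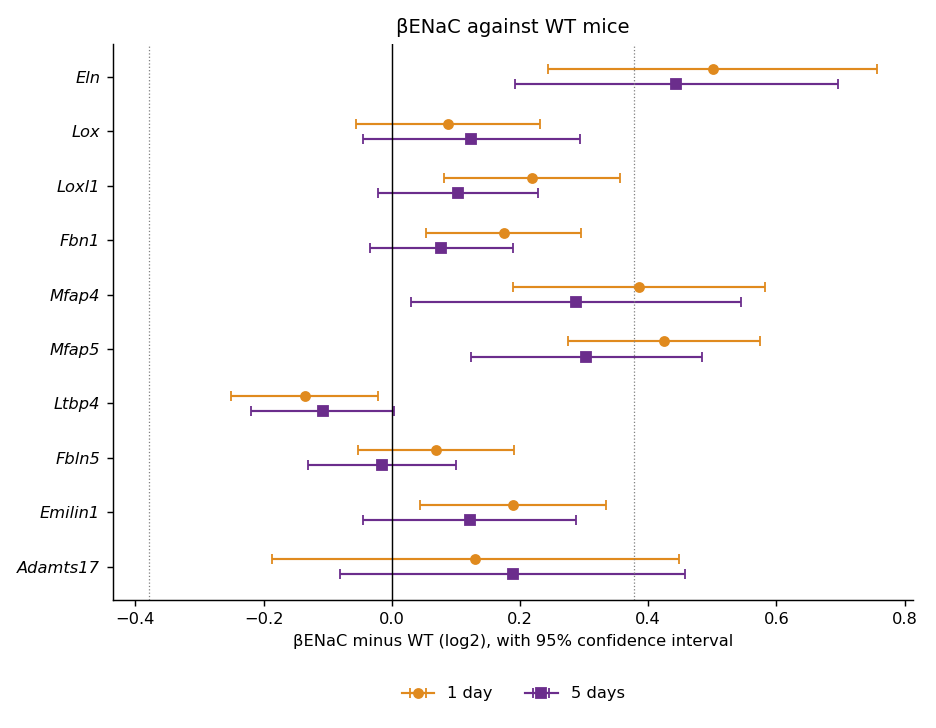
Genotype β coefficients (horizontal axis, βENaC minus WT on the log2 scale) with 95% confidence intervals for the 10 genes at 1 day (circles) and 5 days (squares); dotted lines mark the 1.3-fold threshold. Eln lay above the threshold at both durations (0.50 and 0.44), Mfap5 and Mfap4 did so at 1 day, and Ltbp4 lay below 0.

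Several enzymes that degrade elastin were higher in βENaC mice. Of the 17 elastin-degrading proteases and inhibitors, 5 were higher in βENaC mice at 1 day and 7 at 5 days, and none was lower. Of all rows 1.14% and 1.88% were called higher. These counts take proteases and inhibitors together. Macrophage elastase Mmp12 had β = 2.56 (SE 0.391, adjusted p = 2.28e-05) and 3.22 (SE 0.342, adjusted p = 9.8e-09). Cathepsin K (Ctsk) had β = 1.94 (SE 0.22, adjusted p = 5.19e-08) and 1.97 (SE 0.2, adjusted p = 3.31e-09). The metalloprotease inhibitor Timp1 had β = 1.17 (SE 0.263, adjusted p = 0.00322) and 1.24 (SE 0.284, adjusted p = 0.00264). The median of the list was 0.20 at 1 day and 0.10 at 5 days. Of the 24 microfibril and assembly genes, 1 was lower at both durations, Vtn (β = -0.50, adjusted p = 5.55e-05, and β = -0.39, adjusted p = 0.000709). No fibroblast marker was called for genotype, while the smooth muscle marker Cnn1 was lower (β = -0.44, adjusted p = 0.000372, and β = -0.61, adjusted p = 1.28e-07). Msln was higher at 1 day (β = 0.47), and at 5 days Alas2 (β = -0.39) and Hbb-bt (β = -0.38) were lower. Of 4 leukocyte markers only Itgam was called at 5 days (higher, β = 0.46). The mean level of the 4 was then 8.47 ± 0.34 (SD, n = 19) in βENaC mice and 8.41 ± 0.37 (SD, n = 20) in WT mice. The part of these markers in the genotype differences was not tested.

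Whether the response to smoke depended on sex or genotype was asked with product terms. None of the 10 genes was called by limma for exposure by genotype or exposure by sex at 1 or 5 days, and none had an unadjusted p below 0.05 in these 4 tests. The ordinary linear model called none either. Over all rows, 0.00638% were called in each test at 1 day and 0% at 5 days. The intervals were wide for Adamts17, from -0.26 to 1.01 for exposure by genotype at 1 day and from -0.92 to 0.15 for exposure by sex at 5 days. For Lox at 1 day they ran from -0.42 to 0.16 for genotype and from -0.19 to 0.39 for sex. Differences of the size of the 1.3-fold threshold therefore lay within several of these intervals.

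Beyond the groups, the genes were compared among mice of the same group. Each value was taken as a deviation from the mean of its group, so exposure, sex, genotype and duration did not enter, and the 45 pairs were tested by permuting mice within groups (2-sided permutation test, 100000 resamples, smallest possible p = 1e-05). Of the 45 pairs 35 were positive and 31 passed an adjusted p below 0.05, of which 27 were positive. The median r was 0.38. Eln and Fbn1 went together most closely (Pearson r = 0.83, Spearman rho = 0.71, n = 79, permutation p = 1e-05, adjusted p = 3.46e-05 and 3.21e-05). Within durations r was 0.84 at 1 day (n = 40) and 0.80 at 5 days (n = 39), and it was 0.78 without the 2 mice farthest from the median of Eln.

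High correlations joined 2 sets of genes, described here after their values were seen. Eln, Fbn1, Adamts17 and Loxl1 made up 1 set, with r of 0.75 for Fbn1 and Adamts17 (rho = 0.64), 0.73 for Loxl1 and Fbn1 (rho = 0.69) and 0.68 for Eln and Adamts17 (rho = 0.60). Mfap4, Mfap5 and Fbln5 made up the other, with r of 0.79 for Mfap4 and Fbln5 (rho = 0.72), 0.76 for Mfap4 and Mfap5 (rho = 0.69) and 0.66 for Mfap5 and Fbln5 (rho = 0.53). Each of these 6 pairs had an adjusted permutation p of 0.00015 or less for both coefficients, and r stayed at 0.60 or above without the 2 farthest mice. Across the sets Loxl1 and Mfap5 had r = 0.66 (rho = 0.66, adjusted permutation p = 3.46e-05 and 3.21e-05; 0.65 without 2 mice), whereas Eln and Fbln5 had r = -0.03 (rho = 0.03, permutation p = 0.819 and 0.825). Between these lay Loxl1 and Mfap4 (r = 0.58), Fbn1 and Mfap5 (r = 0.52), and Adamts17 with Mfap4 and with Mfap5 (r = 0.51 for each). Lower values joined Fbn1 and Fbln5 (r = 0.23) and Eln and Mfap4 (r = 0.20).

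Emilin1 went with Loxl1 (r = 0.62, rho = 0.59, adjusted permutation p = 5.62e-05 and 3.21e-05; 0.58 without 2 mice). It also went with Eln (r = 0.60, rho = 0.58) and Fbn1 (r = 0.57, rho = 0.54), at 0.56 and 0.55 without 2 mice. Lox and Ltbp4 had few high values. The median r of Lox with the other 9 genes was 0.03, and that of Ltbp4 was 0.00. Lox went weakly with Eln (r = 0.38, rho = 0.35, adjusted permutation p = 0.00115 and 0.00605) and against Fbln5 (r = -0.35, rho = -0.29, adjusted permutation p = 0.0303 and 0.0403), and without the 2 farthest mice these values of r were 0.35 and -0.23. The 2 crosslinking enzymes were not related among mice of 1 group (Lox and Loxl1, r = -0.12, rho = -0.08, permutation p = 0.324 and 0.527). Ltbp4 went against Emilin1 (r = -0.57, rho = -0.41, adjusted permutation p = 0.000663 and 0.00484) and against Eln (r = -0.39, rho = -0.30, adjusted permutation p = 0.0129 and 0.0343), with r of -0.45 and -0.34 without 2 mice. Set against each gene's correlations with all 31349 other rows, the median r with the other 9 genes lay above 99.9% of rows for Loxl1, 99.8% for Adamts17, 99.5% for Fbn1, 98.9% for Mfap5, 98.1% for Mfap4, 96.0% for Eln, 93.8% for Fbln5 and 90.8% for Emilin1. For Lox and Ltbp4 it lay above 52.6% and 52.4%, near the middle. These percentages set a median of 9 values against values of single rows. The rows were not matched in intensity to the 10 genes, whose means lay above 64.8% to 97.4% of rows. On the same deviations, r with the fibroblast marker mean was 0.83 for Mfap4, 0.80 for Mfap5, 0.65 for Loxl1 and 0.64 for Fbln5. It was 0.58 for Fbn1, 0.48 for Adamts17, 0.44 for Emilin1, 0.29 for Eln, 0.00 for Ltbp4 and -0.19 for Lox. With the endothelial marker mean r was 0.71 for Ltbp4, 0.47 for Fbln5, -0.44 for Eln and -0.62 for Emilin1. The others ran from -0.29 to 0.09. All arrays shared 1 plate and 1 normalisation. The part of cell content and of array quality in these correlations was not tested.

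**Figure D5:**
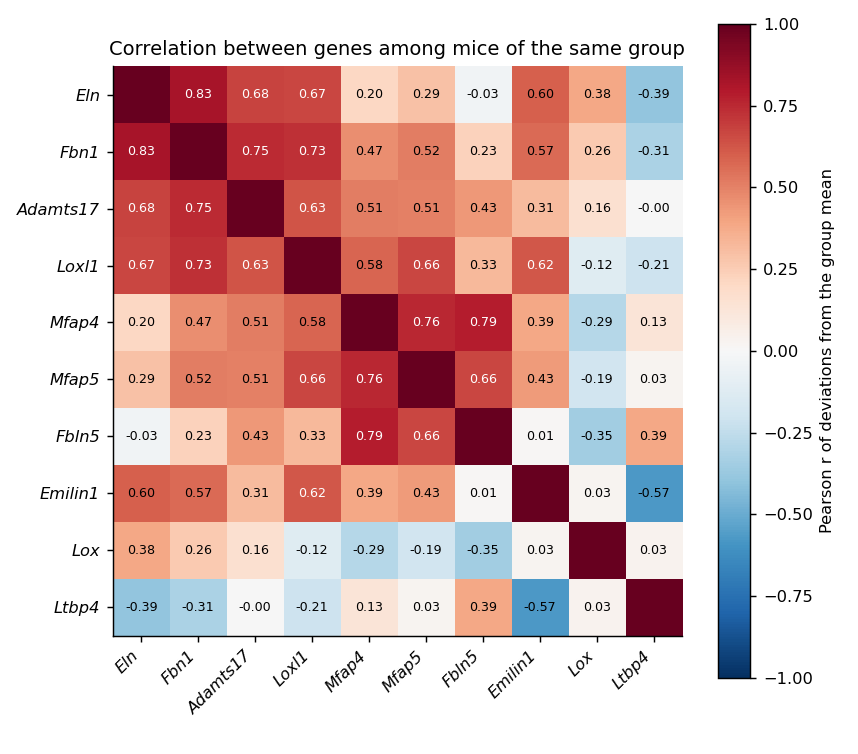
Pearson r (colour and number) between each pair of the 10 genes over 79 mice, on deviations of log2 intensity from the mean of the mouse's own group. Eln, Fbn1, Adamts17 and Loxl1 formed a block of high values at the upper left (0.63 to 0.83), Mfap4, Mfap5 and Fbln5 a block in the middle (0.66 to 0.79), and Lox and Ltbp4 held values near 0 or negative with most genes.

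The rows most like Eln over the 79 deviations, as a description, were Fbn1 (r = 0.83), Gm22137 (r = 0.81), the basement membrane collagen Col4a1 (r = 0.74), the membrane-bound metalloprotease Mmp14 (r = 0.69) and Adamts12 (r = 0.69). Those most like Adamts17 were Fbn1 (r = 0.75), the secreted inhibitor-domain protein Pi15 (r = 0.74), Col4a1 (r = 0.71), the laminin chain Lamc1 (r = 0.69) and Eln (r = 0.68). Fbn1 headed both lists and Col4a1 was in both.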

How the data were processed

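RNA of the right lung of 79 mice was measured on Affymetrix mouse gene arrays, all run on a single plate. The authors deposited log2 intensities, background-corrected by RMA, adjusted for the GC content and sequence of probes, quantile-normalised and summarised by median polish, with Affymetrix Expression Console 1.4 for quality control and Partek 6.6 for normalisation. They removed 1 array as mislabelled for exposure. No counts exist, so precision depends on the number of arrays.

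Of 31350 rows 21837 carried a symbol, 2537 from the tables of the study and 19300 from RefSeq. Groups came from the sample titles. Linear models were fitted with limma 3.58.1 in R 4.3.3 on the deposited values without filter: exposure, genotype and sex for each duration, product terms with exposure, and products with duration over all mice, with Benjamini-Hochberg adjustment over all rows. The study's own duration test held only exposure, duration and their product, and covered its exposure-response genes only. That model was run here as an alternative with adjustment over all 31350 rows. Its adjusted p-values are therefore not those of the study's test. Each p-value measures the spread between single mice. The fits were tested on simulated data. Correlations used 100000 permutations of mice within groups. The genes and the lists were chosen with earlier results of these data known. Named genes are the 10 members, at most 3 called genes per list and comparison (the largest in size), the 5 rows most like Eln and Adamts17, and genes that check the labels. Alternatives were other normalisations, filters, priors, thresholds and designs and leaving out each mouse. Leaving out 4 arrays was chosen after seeing the data.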

Additional observations from a re-analysis of the deposited data

Results flagged for a closer look

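In 16 of 160 sets of 1 gene in 1 group a single mouse lay far from the others by Dixon's test, where chance gives 8 (5%). Of these, 5 were 1 smoke-exposed female WT mouse at 5 days (replicate 2), whose array was among the 4 that correlated least with the others. Its log2 intensity was 10.07 for Lox, the highest of 5, with the next at 9.17, and the lowest of 5 for Loxl1 (8.27), Mfap4 (6.37), Mfap5 (7.65) and Fbln5 (8.71). Without it the 5-day β of smoke was 0.54 for Lox (adjusted p = 1.28e-06), -0.55 for Loxl1 (adjusted p = 4.08e-08) and -0.55 for Mfap4 (adjusted p = 0.000781), and the shift between durations of Fbln5 was -0.28 (adjusted p = 0.0431), from limma.

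A sham-exposed female WT mouse at 5 days (replicate 3) was lowest for Loxl1 (8.78) and Mfap4 (7.43). A smoke-exposed male WT mouse at 5 days (replicate 4) was highest for Mfap4 (8.53) and Fbln5 (9.57). The other single values were low for Eln in a sham-exposed male WT mouse at 5 days (8.59), Mfap4 in a sham-exposed female βENaC mouse at 1 day (7.60), Fbln5 and Emilin1 in different sham-exposed male WT mice at 1 day (8.88 and 7.30) and Adamts17 in a smoke-exposed female βENaC mouse at 1 day (5.67). Emilin1 was high in a smoke-exposed female βENaC mouse at 5 days (8.05, whose array was also among the 4) and in a smoke-exposed male βENaC mouse at 1 day (7.92).

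The effect of smoke differed between 1 and 5 days, by limma's test of the product term, for Loxl1 (-0.43), Fbn1 (-0.42), Mfap4 (-0.91) and Fbln5 (-0.32).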

How the results depend on the processing

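No called effect, and no effect of Eln or Adamts17 described without a test, changed direction under any setting. Effects near 0 that were not called could change sign. With each mouse left out in turn, exposure at 5 days ran from -0.04 to 0.002 for Ltbp4. Genotype at 5 days ran from -0.05 to 0.001 for Fbln5. Of 137 counts of called genes under settings that kept all mice, or left out 4 arrays, 126 stayed within 1.5 times the reported count. Without a fold threshold the counts were 7 for sex at 1 day, 1 for sex at 5 days, 6 for exposure at 5 days and 2 for genotype at 5 days. With a 1.5-fold threshold they were 2 for sex at 1 day and 0 for genotype at both durations. With only exposure, duration and their product in the model, exposure by duration gave 2, as Loxl1 (-0.43, adjusted p = 0.0735) and Fbln5 (-0.32, adjusted p = 0.0657) were lost at unchanged size with larger SEs. Sex by duration gave 1, Ltbp4, with array weights and also without the 4 arrays that correlated least with the others, a setting chosen after seeing the data, which gave 1, Eln, for sex at 5 days. Leaving out each mouse in turn gave 3 to 4 for sex at 1 day, 0 for sex at 5 days, 0 to 1 for sex by duration, 2 to 3 and 0 to 1 for genotype at 1 and 5 days, 1 and 3 for exposure at 1 and 5 days, 4 to 5 for exposure by duration (Mfap5 joined), 0 to 1 between sham-exposed mice, and 27 to 31 related pairs. The mice behind the moves between 0 and 1 were a sham-exposed male βENaC mouse at 5 days (replicate 2; genotype), a sham-exposed male βENaC mouse at 1 day (replicate 1; Ltbp4, sex by duration) and a sham-exposed female WT mouse at 1 day (replicate 5; Mfap4 at 0.44 between sham-exposed mice, adjusted p = 0.0404). Loxl1 for sex at 1 day fell below the fold threshold after median centring (0.36), cyclic loess (0.34) and array weights (0.38), and Mfap4 for genotype at 1 day after median centring (0.37) and cyclic loess (0.37). Replicate numbers did not pair the mice (median correlation 0.01 for same-numbered mice of different groups and 0.00 for others). With the replicate block the counts of called genes were 4 for sex at 1 day, 3 for genotype at 1 day and 3 for exposure at 5 days. A second row per gene was not run, since each gene had 1. The cause of each change was not tested.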
